A study of Mus musculus with 3 samples.

Results

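Of 697 naive CD4 T cells profiled one by one, 168 held at least 1 transcript of Ly6c1 and 529 held none. These 168 Ly6c1-expressing cells, 46 of 172 in plate 1, 49 of 201 in plate 2 and 73 of 324 in plate 3, are described here against Ly6c1-negative cells. They were chosen by 1 measured value, a Ly6c1 count above 0, so Ly6c1 itself was left out of every comparison. Each was set beside 1 Ly6c1-negative cell of the same plate and close to the same total of transcripts, which gave 168 matched negative cells. All cells came from spleen and lymph nodes of untreated C57BL/6 mice aged 8 to 12 weeks, male and female pooled, with no engineered allele named. They were sorted alive as TCRb+, CD4+, CD62L+ and CD5+ single cells lacking CD8, CD25 and CD44, over the whole range of surface CD5. The 3 samples are 384-well plates, and the authors also assigned each cell a Low, Middle or High CD5 class. The number of mice is not given in the labels. The units compared are the summed cells of 3 plates, and variation among them may be technical. The edgeR p-values below rest mostly on variation pooled over genes, so a small p need not mean that plates concur. Low class cells made up 39.1%, 28.6% and 39.7% of expressing cells in the 3 plates and 32.6%, 20.4% and 17.8% of matched cells.

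Ly6c1 encodes one form of the antigen Ly6C, a small surface protein held in the outer membrane by a lipid (glycosylphosphatidylinositol) anchor. It belongs to the Ly6 family, which also includes Ly6a (Sca-1, known from blood stem cells and activated lymphocytes) and Ly6e. In the mouse, Ly6c1, Ly6a and Ly6e lie in a gene cluster on chromosome 15. Several genes of the family are known to be induced by interferons. On naive CD4 T cells, Ly6C is known as a marker that varies against CD5, which itself rises with the strength of T cell receptor contacts with self-peptides.

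The Ly6 genes are close relatives, so their sequences are shown first, because they bear on which transcripts a read can be assigned to. By the GENCODE M21 annotation of GRCm38 (mm10), Ly6c1 lies at chr15:75044018-75048830 on the minus strand. Ly6c2, a second Ly6C gene, lies at chr15:75108158-75111970 on the minus strand. Ly6a lies at chr15:74994877-74998031 on the minus strand, and Ly6e at chr15:74955051-74959905 on the plus strand. The last 240 bases of the coding sequence of the principal transcript, up to the stop codon, are printed 5′ to 3′ for Ly6c1 (bases 157 to 396), Ly6c2 (157 to 396) and Ly6a (166 to 405). Capitals mark bases that differ from Ly6c1 in a global alignment.
Ly6c1: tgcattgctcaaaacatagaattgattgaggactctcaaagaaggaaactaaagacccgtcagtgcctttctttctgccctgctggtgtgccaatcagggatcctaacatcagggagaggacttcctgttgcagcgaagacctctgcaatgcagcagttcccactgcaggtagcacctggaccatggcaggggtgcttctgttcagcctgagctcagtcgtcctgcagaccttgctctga
Ly6c2: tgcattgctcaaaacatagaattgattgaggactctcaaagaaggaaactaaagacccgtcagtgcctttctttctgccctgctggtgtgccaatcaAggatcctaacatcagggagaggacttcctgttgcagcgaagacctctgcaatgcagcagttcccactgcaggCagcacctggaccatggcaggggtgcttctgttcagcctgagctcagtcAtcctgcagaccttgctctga
Ly6a: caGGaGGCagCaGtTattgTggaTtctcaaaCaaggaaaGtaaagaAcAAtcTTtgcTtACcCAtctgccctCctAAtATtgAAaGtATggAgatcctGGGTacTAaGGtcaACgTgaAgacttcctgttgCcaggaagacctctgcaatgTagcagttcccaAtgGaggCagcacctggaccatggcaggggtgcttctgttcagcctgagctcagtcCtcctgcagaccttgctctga
Ly6c2 carried 3 differing bases in this stretch and Ly6a 51. Over the whole coding sequence Ly6c2 carried 9 differing bases in 396, and 97.7% of aligned positions were identical to Ly6c1. Ly6a was 82.8% identical, and Ly6e 52.2%. Over the last 500 bases of the transcript, the end that a poly(T)-primed library reads, 44.2% of the 30-base words of Ly6c1 also occurred in Ly6c2 and 5.52% in Ly6a. The longest exact stretch shared there was 124 bases with Ly6c2, 48 with Ly6a and 9 with Ly6e. The labels do not say how reads that fit several genes were assigned, so Ly6c1 and Ly6c2 counts, and to a lesser extent Ly6a counts, are uncertain to that degree. The part of shared reads in the results below was not tested.

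Detection of Ly6c1 rested on few molecules. The 168 cells held 307 Ly6c1 transcripts in all, counted by unique molecular identifiers (UMIs). Of these cells, 104 held 1 UMI, 34 held 2, 13 held 3 and 17 held 4 or more, and the highest cell held 16. The line between the groups is therefore the step from 0 to 1 UMI. Cells at 1 UMI had a median of 4950 transcripts in total and cells at 0 a median of 3729. A cell without a Ly6c1 UMI may still express the gene, so the negative group is a group of cells with no detection.

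Expressing cells were deeper than negative cells as a whole, and matching brought the groups close. In plates 1, 2 and 3 the expressing cells had a median of 5010, 6449 and 4908 UMIs, against 4856, 6490 and 4880 in their matched cells and 2413, 3825 and 2890 in the negative cells left unmatched. The paired cells differed by a median of 0.0092 on the log2 scale and at most by 0.35. The median number of detected genes was 1437, 1659 and 1566 in expressing cells and 1457, 1716 and 1576 in matched cells. Summed over cells, each expressing sum held between 236967 and 396036 UMIs. Of the well positions, 285 occurred in more than 1 plate and 40 in all 3, because each plate uses the same set of cell barcodes. Cd4 was detected in 98.2% of expressing cells and 97.6% of matched cells, and Cd3e in 86.3% and 85.1%. Cd3d was found in 83.3% of cells in both groups, and Cd3g in 75.6% of expressing and 81.5% of matched cells. Both groups thus carried T cell transcripts.

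Ly6a, which encodes Sca-1, was higher in the expressing sum of each plate by a similar amount, though 1 cell carried much of it in plate 1. Its summed UMIs were 72, 101 and 70 in the expressing cells of plates 1, 2 and 3, against 35, 50 and 34 in the matched cells. Scaled to the size of each sum with TMM normalisation, as CPM, the levels were 332, 351 and 188 CPM against 154, 168 and 94.6. Every expressing sum lay above every matched sum, and 9% of all genes tested had sums that did not overlap in either direction. Ly6a was 2.07-fold higher (log2 difference 1.05, SE 0.24, edgeR quasi-likelihood adjusted p = 0.00709), with plate differences of 1.07, 1.04 and 0.94 on the log2 scale. It was 1 of 13 genes called among 4488 tested, or 0.29%, and 1 of 3 called higher (0.0668%). Without plate 1, 2 or 3 the log2 difference was 1.04, 1.05 and 1.08, but the edgeR adjusted p rose to 0.227, 0.262 and 0.187. The DESeq2 Wald test gave the same size with an adjusted p of 1 and called 0 genes. At an unadjusted p under 0.05 it had 41 genes and edgeR 258.

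The difference in Ly6a was also visible in the number of cells. At least 1 Ly6a UMI was found in 18 of 46 expressing cells in plate 1, 32 of 49 in plate 2 and 33 of 73 in plate 3. The matched cells gave 16 of 46, 21 of 49 and 17 of 73. Over all plates the shares were 49.4% (exact 95% interval 41.6 to 57.2) and 32.1% (25.2 to 39.8). These intervals pool the cells of the plates and do not cover differences among plates. The groups were close in plate 1 and apart in plates 2 and 3. In plate 1, 1 expressing cell held 28 of the 72 Ly6a UMIs. Scaled by the total alone, the plate 1 level was 304 CPM with that cell and 195 without it, against 146 in matched cells. Without that cell and its match the log2 difference was 0.85 and no longer passed (edgeR adjusted p = 0.167). In another setting, cells under 2119 UMIs were left out, the rest thinned to that depth and all remaining negatives used. The log2 difference of Ly6a was then 0.41 (edgeR adjusted p = 0.948). Ly6a was positive under each of the 21 alternatives in which it was tested, from 0.41 to 1.27, and passed in 5 of them.

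Above 1 Ly6c1 UMI, the level of Ly6a had no common direction over the plates. The classes compared here use the Ly6c1 counts that chose the cells, so this is description only. Its level, scaled by the total alone here and in later paragraphs, was 126 CPM in cells with 0 Ly6c1 UMIs, 299.5 at 1 UMI and 191 at 2 or more. The share of cells with Ly6a was 24.8%, 48.1% and 51.6% in the same order, with exact 95% intervals of 21.1 to 28.7, 38.2 to 58.1 and 38.7 to 64.2. The intervals at 1 UMI and at 2 or more overlapped, but they pool the cells of the plates and cover counting error only. From 1 UMI to 2 or more, the level went from 387 to 190 CPM in plate 1, from 395 to 191 in plate 2 and from 166 to 192 in plate 3. The plate 1 cell with 28 Ly6a UMIs had 1 Ly6c1 UMI, and without it the plate 1 level at 1 UMI was 199 CPM. Cells with 0 Ly6c1 UMIs were at 200.5, 119 and 96.2 CPM in plates 1, 2 and 3. In plate 1, without that cell, neither class with Ly6c1 was thus above the class at 0. The 3 classes of Ly6c1 count were not matched for depth, and their median totals were 3729, 4950 and 5826 UMIs.

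**Figure D1:**
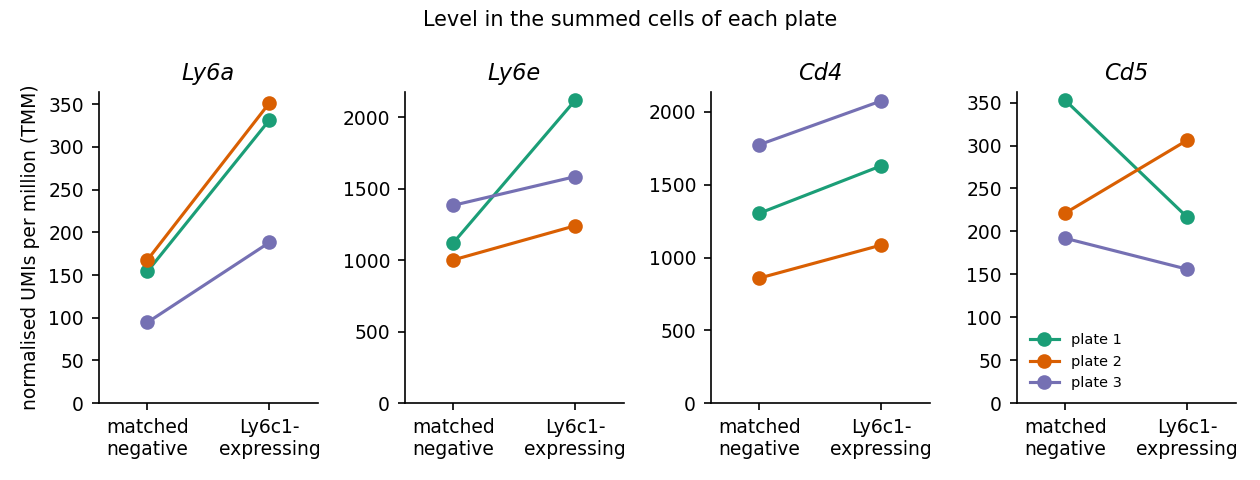
Normalised level of 4 surface protein genes in the summed cells of each plate, as CPM after TMM scaling, with 1 line for each of the 3 plates from matched negative to Ly6c1-expressing cells. Ly6a lines rise from 154, 168 and 94.6 to 332, 351 and 188, Ly6e and Cd4 rise in each plate, and Cd5 crosses.

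Ly6e, a lipid-anchored relative present in nearly all cells, was higher by less. Its UMIs were 461, 357 and 590 in expressing cells against 255, 299 and 498 in matched cells. It was higher in all 3 plates, but the sums overlapped between plates. The log2 difference was 0.47 (SE 0.11, edgeR adjusted p = 0.00719), and the plates gave 0.91, 0.31 and 0.19. Plate 1 carried most of it: without that plate the difference was 0.26 and did not pass (edgeR adjusted p = 0.9999). Without plates 2 and 3 it was 0.54 and 0.61, also not passing.

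Ly6c2, the second Ly6C gene, was too rare to be tested. It had 2, 3 and 9 UMIs in the expressing cells of the 3 plates and 0 in each matched group. Summed over plates, 14 UMIs against 0 means a level at least 4.67-fold higher, taking 3 counts over the group as the limit of a 0. That 0 belongs to 1 choice of matched cells. All 529 negative cells held 9 Ly6c2 UMIs, or 3.93 CPM against 14.7 CPM in expressing cells, a 3.74-fold difference that lies below the bound. The negative cells left unmatched were at 6.71 CPM and the cells matched within class held 2 UMIs. Of the 19 cells with Ly6c2 in the whole series, 14 also held Ly6c1. The coding sequences printed above are nearly alike, and the part of shared reads in this overlap was not tested. Of the 27 Ly6 family genes listed, 13 were in the table and Ly6a and Ly6e alone passed the filter on low counts. Besides those named, Lypd6b had 17 and 23 UMIs in expressing and matched cells, and Lynx1 4 and 0. The other members had at most 4 and 11 UMIs.

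Cd4, the coreceptor of these cells, had 354, 312 and 772 UMIs in expressing cells against 296, 256 and 638, a log2 difference of 0.29 (SE 0.11) that did not pass (edgeR adjusted p = 0.432). Cd5 had 47, 88 and 58 against 80, 66 and 69 UMIs and went in different directions by plate, with a log2 difference of -0.16 (SE 0.23, edgeR adjusted p = 0.963). Cd6, which encodes a receptor related to CD5, had 41, 52 and 55 against 67, 80 and 43, a difference of -0.31 (SE 0.25, edgeR adjusted p = 0.934). Neither passed the test.

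The third gene called higher was Rn45s, the ribosomal RNA precursor, by 0.20 on the log2 scale (edgeR adjusted p = 2.64e-07), and plate 3 gave 0.029. It lost the call without plate 1 (0.11) and without plate 2 (0.22). Its median share per cell differed by 0.082, -0.13 and 0.022 on the log2 scale in plates 1, 2 and 3. The mean of these was -0.01, so a higher level in the typical cell was not shown. Of the 10 genes called lower (0.223% of genes tested), 7 were the Kcnq1ot1 group, a list of transcripts that vary together in these cells and were grouped on these samples. The group is no independent evidence of a direction. Kcnq1ot1, a long noncoding RNA, had 1251, 1144 and 1789 UMIs in expressing cells against 1382, 1304 and 5201. The Kcnq1ot1 sums of plates 1 and 2 were nearly even and those of plate 3 were not. The group as a whole took 1.32%, 0.946% and 1.18% of UMIs in expressing sums and 1.49%, 1.12% and 3.4% in matched sums. The median share per cell was lower in expressing cells of every plate, by -0.059, -0.37 and -0.59 on the log2 scale against matched cells and by -0.64, -0.42 and -0.72 against all negative cells. A single matched negative cell of plate 3 had 44.3% of its UMIs in the group. Kcnq1ot1 fell by 0.60 over all plates (edgeR adjusted p = 1.91e-17), was -0.40 without that cell and its match, and -0.11 without plate 3 (edgeR adjusted p = 0.99). With robust estimation in edgeR its adjusted p was 0.935.

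Outside that group, the genes called lower included mt-Rnr1, the small mitochondrial ribosomal RNA (log2 difference -0.26, SE 0.06), and Lmbrd1, a lysosomal membrane protein of vitamin B12 transport (-2.20, SE 0.54). Lmbrd1 had 6, 1 and 8 UMIs in expressing cells against 15, 22 and 32 in matched cells. Its sums did not overlap, as for 9% of all genes tested. It passed in 5 of 17 alternatives that tested it, and mt-Rnr1 in 7 of 22.

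**Figure D2:**
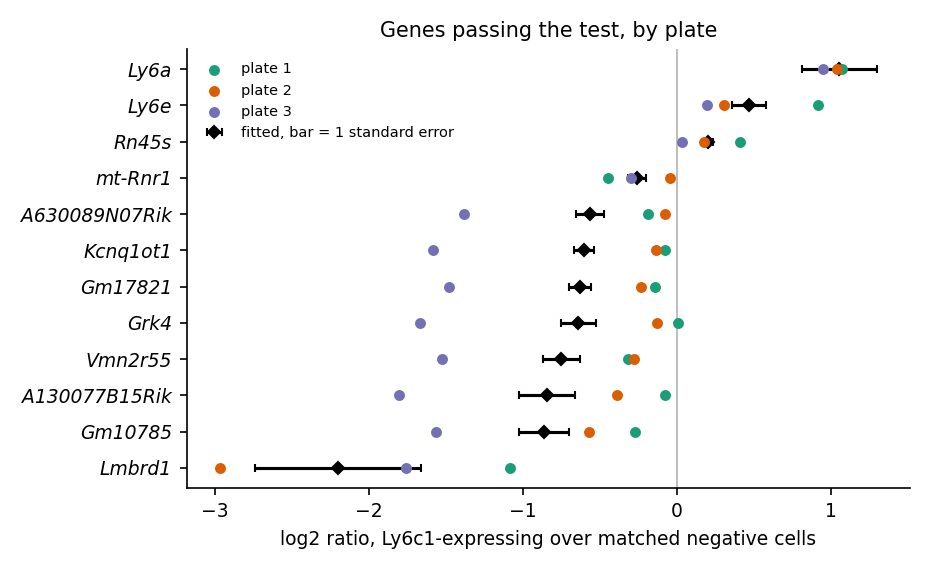
Log2 ratio of Ly6c1-expressing over matched negative cells for 12 of the 13 genes that passed, with coloured points for the 3 plates and black diamonds for the fitted value with 1 standard error. The Ly6a points lie together near 1.05, while plate 3 lies far from plates 1 and 2 for the Kcnq1ot1 group. The plate 1 point of Ly6a includes 1 cell that held 28 of its 72 UMIs there.

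Below the threshold, the genes of smallest p that were higher in all 3 plates were Grap, an adaptor of lymphocyte receptor signalling, Ehd3, an endosomal recycling protein, Ubr1, a ubiquitin ligase, Rps6, a ribosomal protein, and Rbbp5, a subunit of histone H3 methyltransferases. Grap had 40, 34 and 57 UMIs against 13, 18 and 23 (log2 difference 1.29, SE 0.35, edgeR adjusted p = 0.0717). Its expressing sums all lay above its matched sums, where 9% of all genes tested had sums that did not overlap in either direction. Ehd3 had 37, 82 and 66 against 38, 16 and 41, so plate 1 was even. Ubr1 had 28, 38 and 74 against 12, 14 and 41. None of these 5 passed.

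No gene on the interferon lists used here passed as a single gene. Ly6a and Ly6e, which passed, were counted with the Ly6 family and not on these lists. Of 33 tested type I interferon response genes, 21 were positive and 12 negative, with a median log2 difference of 0.16 against 0.00 over all genes tested, and 0 passed. Of 25 tested genes of the interferon gamma response and class I presentation, 18 were positive and 7 negative, the median was 0.17 and 0 passed. Of these 25, 6 had an unadjusted edgeR p under 0.05, against 5.75% of all genes tested and 1 of the 33 type I genes. That share was not particular to this list. The count was 19 of 77 ribosomal protein genes, 7 of 30 quiescence and homing genes and 3 of 12 memory and activation markers. Averaged over the CD5 classes, 12 genes of each interferon list could be tested. The type I list then had 6 positive and 6 negative members with a median of -0.044, and the interferon gamma list 7 and 5 with a median of 0.097. Igtp, an interferon-induced GTPase, had 42, 76 and 47 UMIs against 33, 34 and 29. B2m, the light chain of class I molecules, had 1557, 2072 and 2324 against 1388, 1880 and 2101. Both were higher in all 3 plates, by 0.77 and 0.17 on the log2 scale. Gbp7 and Irgm2 were higher in plates 1 and 3 and lower in plate 2, with plate differences of 1.81, -0.26 and 1.54 for Gbp7 and 2.26, -0.40 and 2.19 for Irgm2. Bst2, an interferon-induced lipid-anchored protein, had 14, 13 and 13 UMIs against 9, 12 and 4, and Thy1, another lipid-anchored protein, differed by 0.11 (SE 0.11).

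Genes linked to self-reactivity leaned the other way, again with 0 passing. Of 13 tested, 3 were positive and 10 negative, with a median of -0.16. Folr4 (Izumo1r), the folate receptor 4 of anergic and regulatory T cells, had 42, 31 and 50 UMIs against 93, 103 and 41 (log2 difference -0.86, SE 0.25, edgeR adjusted p = 0.114). It was lower in plates 1 and 2 and slightly higher in plate 3. Nr4a1, an early gene of T cell receptor signalling, had 4, 36 and 21 against 19, 44 and 29. Of 22 tested early and NF-kB genes, 7 were positive and 15 negative, with a median of -0.078. Averaged over the classes, the 14 tested early and NF-kB genes had 7 of each sign and a median of 0.0014, and the 4 tested self-reactivity genes 1 positive and 3 negative. Nfkbia, the inhibitor of NF-kB, had 25, 69 and 79 against 32, 123 and 108, and Cd69, which retains cells in tissue, had 38, 29 and 67 against 58, 45 and 87. Both were lower in all 3 plates without passing (edgeR adjusted p = 0.631 and 0.851).

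Quiescence and lymph node homing genes were mixed, with 10 positive and 20 negative of 30. S1pr1, the receptor by which T cells leave lymph nodes, had 131, 306 and 308 UMIs against 117, 202 and 244. Igfbp4, an insulin-like growth factor binding protein of naive cells, had 175, 163 and 282 against 210, 284 and 322. The pair were thus of opposite direction in the same list, by 0.40 and -0.39 on the log2 scale. Icos, a costimulatory receptor, had 5, 7 and 21 against 21, 42 and 19, and Bcl2, a survival protein, had 67, 145 and 147 against 163, 225 and 115. Neither kept its sign in plate 3.

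Ribosomal protein genes were the list with the most members of 1 sign. Of 77 tested, 73 were positive and 4 negative, with a median of 0.12, and 0 passed. Their share of a cell's UMIs had medians of 19.6%, 21.4% and 18.9% in expressing cells and 18.8%, 18.5% and 18.1% in matched cells. The exact sign-flip p over plates was 0.25 (adjusted over 7 measures 0.438), the smallest that 3 plates allow. The share of chromosome M transcripts differed by -0.012 on the log2 scale with SD 0.053 (n = 3 plates). GIMAP GTPases had 4 positive and 4 negative members of 8, and T cell receptor complex and proximal signalling genes 11 and 14 of 25.

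The CD5 classes were then compared one by one, with matching inside plate and class. No gene passed in any of them or in their average: 0 of 1307 (0%) in Low, Middle, High and the average by edgeR. At an unadjusted p under 0.05 there were 44 genes in Low (3.37%), 54 in Middle (4.13%), 125 in High (9.56%) and 99 in the average (7.57%). The DESeq2 Wald test also called 0 in the average, with 62 at that level. Ly6a in Low cells had 3, 39 and 25 UMIs in the expressing sums of plates 1, 2 and 3 against 21, 11 and 23. In Middle cells it had 67, 39 and 36 against 16, 13 and 10. In High cells it had 2, 23 and 9 against 0, 3 and 3. Low cells therefore had no common direction, and Middle cells were higher in every plate. The plate 1 cell with 28 Ly6a UMIs is 1 of these Middle cells. Ly6a was found in 13 of 22 expressing and 11 of 22 matched Middle cells of plate 1. High cells were higher in plates 2 and 3, while plate 1 had 2 UMIs against 0 in 6 cells each. Against all 43 negative High cells of plate 1 the levels were 70.9 and 70.8 CPM.

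The fitted log2 differences of Ly6a were 0.064 (SE 0.54) in Low, 1.80 (SE 0.50) in Middle and 2.40 (SE 0.83) in High cells, and 1.42 in their average (edgeR adjusted p = 0.2). With no filter on low counts the average was 1.44 and passed (edgeR adjusted p = 0.0112), and over the other alternatives it ranged from 0.69 to 1.62 without passing. The test that the 3 differences are equal gave an unadjusted p of 0.0335 and an edgeR adjusted p of 0.976, so a difference between classes was not shown. By that test 0 genes (0%) passed, and 49 (3.75%) had an unadjusted p under 0.05. The share of cells with Ly6a was 37.7% against 36.1% in Low, 56.2% against 31.5% in Middle and 55.9% against 11.8% in High cells. The matched High cells held little Ly6a, 32.2 CPM, while all 140 negative High cells held 98.8. Against all negatives, the High difference was 0.68 and the Middle difference 1.47.

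**Figure D3:**
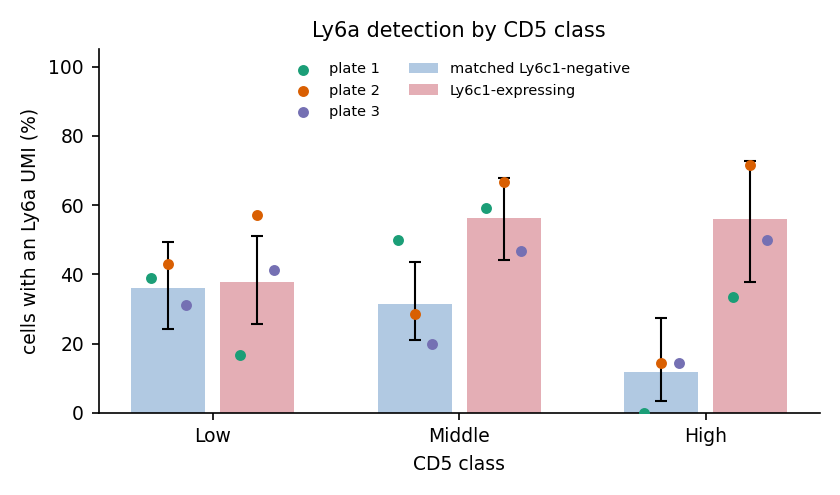
Percentage of cells with at least 1 Ly6a UMI in each CD5 class, for Ly6c1-expressing cells and cells matched within plate and class. Bars pool the plates with exact 95% intervals and points are the 3 plates; the shares are 37.7% and 36.1% in Low, 56.2% and 31.5% in Middle and 55.9% and 11.8% in High cells.

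Averaged over classes, Ly6e was higher by 0.29 on the log2 scale (edgeR adjusted p = 0.494), with 0.0055, 0.26 and 0.61 in Low, Middle and High. Ehd3 was higher by 1.16 and was positive in each class, from 0.93 in High to the largest value in Middle. Pik3ip1, an inhibitor of phosphoinositide 3-kinase in resting T cells, was higher by 1.12, and S1pr1 by 0.47. Folr4 was lower by 1.15, with -1.64, -1.06 and -0.75 in Low, Middle and High, and Arhgap15, a regulator of Rac, was lower by 0.89. All of these were of 1 sign in the classes named, and none passed. The genes of smallest p between classes, Dock10, Rpl37a, mt-Rnr1, Elf4 and Cdc42, had adjusted p values that did not pass either. Dock10, an activator of Cdc42, gave -1.16, -0.013 and 1.17 from Low to High.

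Surface CD5, recorded when each cell was sorted, took no part in choosing the cells. Its median was 38953, 47036 and 34057 fluorescence units in the expressing cells of plates 1, 2 and 3, against 54860, 43987 and 42023 in matched cells. Expressing cells were lower in plates 1 and 3 and slightly higher in plate 2, and the quartiles overlapped in each plate. The mean difference of log2 medians was -0.23 with SD 0.30 (n = 3 plates), with an exact two-sided sign-flip p of 0.5, where 0.25 is the smallest possible. Against all negative cells it was lower in all 3 plates, by a mean of -0.29. In plate 2 the deposited CD5 correlated with Cd5 transcripts at a Spearman rho of 0.08 over 201 cells, and at 0.32 over 170 cells when each cell took the value of the next well. With that displacement the difference was -0.44 and plate 2 gave -0.51. Cd6 transcripts gave -0.13 and 0.37 in the same way. Which well order is right was not settled here, and the plate 2 CD5 classes used above and below rest on the same order. Inside a class, the expressing and matched medians differed by at most 0.35 in size on the log2 scale.

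**Figure D4:**
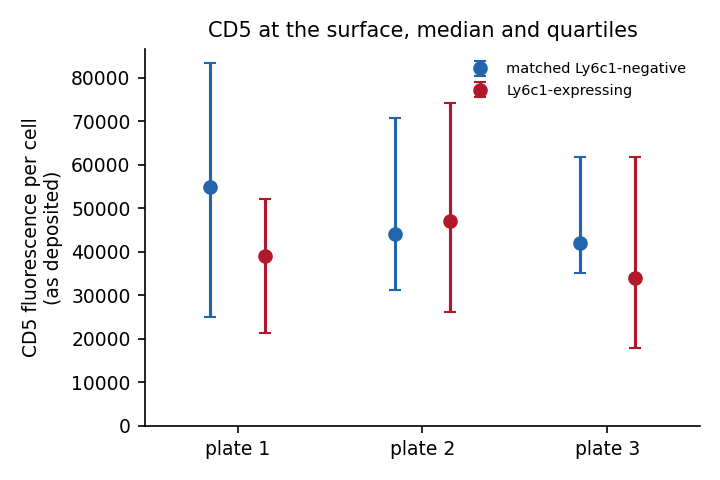
Median CD5 fluorescence per cell with its quartiles, as deposited, for Ly6c1-expressing and matched negative cells of each plate. The medians are 38953 against 54860 in plate 1, 47036 against 43987 in plate 2 and 34057 against 42023 in plate 3.

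The share of cells with Ly6c1 was described by class at equal depth, since it defines the groups and cannot be tested on them. Cells with fewer than 2119 UMIs were left out, which kept 557 of 697, and each was thinned to 2119 UMIs in 1 random draw. Ly6c1 was then found in 40 of 150 Low cells (26.7%, exact 95% interval 19.8 to 34.5). It was found in 36 of 275 Middle cells (13.1%, 9.34 to 17.7) and 15 of 132 High cells (11.4%, 6.50 to 18). Without thinning the shares were 35.1%, 20.9% and 19.5%. Low cells were above High cells in plates 1 and 3 (28.2% and 31.4% against 9.38% and 5.56%), and plate 2 gave 17.1% and 19.6%. At the median depth of 4244 UMIs the shares were 30.2%, 22.4% and 22.8%, and the order of Middle and High changed. With plate 2 classes moved by 1 well, the shares at 2119 UMIs were 27.1%, 14.4% and 8.06%, and plate 2 alone gave 17.1%, 13% and 10.5% from Low to High. Without plate 2 they were 30.3%, 15.1% and 6.98%, and without plate 1 or 3 the High share was above the Middle share (12% and 10.8%, 15.4% and 14.1%).

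**Figure D5:**
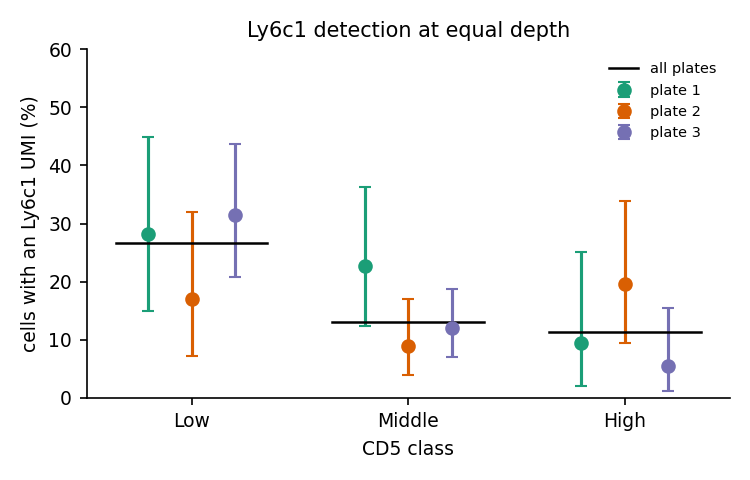
Percentage of cells with an Ly6c1 UMI after thinning to 2119 UMIs, with cells under that depth left out, by CD5 class. Points with exact 95% intervals are the 3 plates, and black lines are all plates together. The lines stand at 26.7% in Low, 13.1% in Middle and 11.4% in High cells, and plate 2, drawn with its deposited classes, does not follow the other two.

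Markers of other cell types were counted in both groups, and their part in the results was not tested. Of 5 listed B cell genes, 4 were in the table, with 0 to 10.1 summed CPM in expressing cells and 0 to 90.1 in matched cells, or 5 against 38 UMIs in all. Of 2 CD8 T cell genes, the summed level was 12.5 to 25.3 and 0 to 18 CPM. Of 5 natural killer cell genes, 3 were in the table at 22.7 to 65.5 and 8.32 to 38.6, nearly all from Klrd1. Of 9 monocyte and macrophage genes, 6 were in the table at 232 to 304 and 222 to 291 CPM, nearly all from Ctss and Cst3, and at least 1 of them was found in 62.5% and 54.2% of cells. Ctss alone was found in 48.2% and 43.5%, while Lyz1, S100a8 and S100a9 were at 0 in expressing cells. Of 5 endothelial genes, which matter because endothelium is known to carry Ly6c1, only Pecam1 and Cdh5 were in the table and Cdh5 was at 0 in expressing cells. The endothelial sum, nearly all Pecam1, was 101 to 211 and 95.1 to 225 CPM. Of 5 plasmacytoid dendritic cell genes, Bst2 gave 40 of 62 UMIs in expressing cells and Irf8 was at 0, and the list's range was 53 to 92.8 CPM against 41.6 to 61.7. Of 3 erythroid genes, Alas2 alone was in the table, with 0 and 2 UMIs. Of 16 regulatory T cell genes, 14 were in the table at 212 to 325 and 244 to 508 CPM. Foxp3, the regulator of regulatory T cells, was found in 10.7% of expressing and 5.36% of matched cells, with 40 against 15 UMIs. Over all 697 cells it was found in 8.03%, and the matched share belongs to 1 choice of cells. Other genes of that list went both ways. Folr4 had 123 against 237 UMIs, Tnfrsf18 21 against 33, Ikzf2 8 against 18, Il2ra 4 against 8 and Tigit 1 against 7. Nt5e had 26 against 21 UMIs, Capg 21 against 14, Tnfrsf4 12 against 10, Ikzf4 5 against 3 and Ctla4 4 against 3. Itgae, Gpr83 and Lrrc32 were even, and Ikzf2 was detected in 4.76% of cells in both groups. Without Foxp3 cells the log2 difference of Ly6a was 1.01, close to the value with them, and the edgeR adjusted p was 0.453.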

How the data were processed

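Single naive CD4 T cells were profiled in 3 plates by SORT-seq (CEL-Seq2 chemistry in wells, UMIs of 6 bases), per the labels' protocols. Reads were mapped with BWA to mm10, per the submitters' processing notes, with no BWA version recorded there. The deposited gene table holds expected counts, UMI counts that the authors corrected to molecule estimates, which were rounded after summing. CD5 is the authors' deposited fluorescence signal per cell. The authors' CD5 class is a deposited label of another kind, not a measurement. The primer sheet was not used.

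Cells were matched 1 to 1 by optimal assignment on log2 total UMIs, without spike-ins and Ly6c1, and counts were summed by plate and status (6 sums, or 18 with CD5 class) and fitted with plate (or plate and class) as a block in edgeR 4.0.16 (TMM, filterByExpr, quasi-likelihood, R 4.3.3), two-sided, Benjamini-Hochberg over all genes at 0.05. The prior of the matched fit had 1529 degrees of freedom against 2 residual, so a small p need not mean that plates concur. DESeq2 1.42.0 was an alternative. Plates served as pairs because both sums of a plate share its library. On data simulated for the matched comparison over 4488 genes, 42 of 100 genes changed 2-fold were recovered and 79 of 100 changed 4-fold. Of 125 calls there, 4 were false. The simulated counts had the fitted dispersions and 1 mean level per gene, with no plate differences and no outlier cells. They therefore do not show how the test behaves where plates differ or single cells dominate a sum. Measures per cell were compared by exact sign-flip tests over plates, and shares have exact Clopper-Pearson intervals at 95%, which cover counting error only. Python 3.11.15, scipy 1.17.1, pandas 2.3.3, numpy 2.4.6 and matplotlib 3.10.9 were used.

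The members, lists and tests were chosen with earlier results of these data known. Named were Ly6a, Ly6c2, Ly6e, Cd5, Cd6 and Cd4, in each direction up to 12 passing genes of 1 sign in all 3 plates, genes of smallest p up to 8 where fewer than 10 passed, up to 4 per list and up to 5 between classes. Lypd6b, Lynx1 and Grk4, and the cell type markers, fall outside that rule and were named after their values were seen. Alternatives that drop single cells, move or leave out a plate in the Ly6c1 shares, use robust estimation or match without the Kcnq1ot1 group, Rn45s and chromosome M were chosen after seeing the data. Of the called genes, 1 is not reported here.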

Additional observations from a re-analysis of the deposited data

How the results depend on the processing

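The log2 difference of Ly6a was 1.05 with DESeq2 size factors and 1.06 with no filter, and passed; it also passed against all negative cells (1.01), without the top Kcnq1ot1 group cell and with robust estimation. It kept its sign and did not pass with the DESeq2 Wald test (1.05), a mean of at least 50 counts (1.01), no replicate block (1.06), at least 2 Ly6c1 UMIs (0.80), 2 matched cells each (1.05), 3 depth ranges of each plate as blocks (0.91), thinning (0.41), matching within class (1.27), without Foxp3 cells (1.01), without cells over 2% Kcnq1ot1 (0.98), without the top Ly6a cell (0.85), without both top cells (0.82) and matched on UMIs without the Kcnq1ot1 group, Rn45s and chromosome M (1.22); leaving out 1 plate gave 1.04 to 1.08. The causes were not tested.

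The 13 called genes became 0 with the DESeq2 Wald test, a mean of at least 50 counts (796 genes tested), no replicate block, 2 matched cells each, without Foxp3 cells and with the other matching total. There were 3 with the depth ranges as blocks, 7 with thinning, 1 with class matching, 1 without cells over 2% Kcnq1ot1, 8 without both top cells, 7 with robust estimation and 2 without cells with other cell type markers, which left 32 expressing cells. Leaving out 1 plate gave 3 to 11. Within classes, the average had 13 calls with no filter (12770 genes tested), Ly6a among them (1.44), and 0 to 2 when 1 plate was left out; with no replicate block it had 0.

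Some signs turned. Genes detected differed by 0.30 against all negatives, the mean of spike-in counts by 0.0029, and the Rn45s share by 0.15 against all negatives and 0.080 by the mean. Leaving out 1 plate gave -0.027 to 0.019 for the chromosome M share, and -0.056 to 0.052 for the Rn45s share. Cd5 was 0.12 with class matching and -0.50 to 0.10 with 1 plate left out, mt-Rnr1 was 0.024 at 2 or more Ly6c1 UMIs, and Rps6 was -0.0048 without cells with other markers. Ly6a in Low cells was -0.030 with the DESeq2 Wald test, -0.063 against all negatives, -0.30 with plate 2 CD5 moved by 1 well and -0.91 to 0.91 with 1 plate left out. The share of cells with Ly6c1 was 35.1%, 20.9% and 19.5% with no thinning, and 22.4% in Middle and 22.8% in High cells thinned to the median. Leaving out 1 plate gave 22.5% to 30.3% in Low, 10.8% to 15.1% in Middle and 6.98% to 15.4% in High cells. The CD5 difference kept its sign in all 9 alternatives, from -0.44 to -0.10. Depth limits these results: with a median of 4244 UMIs per cell, most Ly6c1-expressing cells rest on 1 molecule.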
